A study of Mus musculus with 4 samples.

Results

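The 10 genes described here encode fibronectin (Fn1), thrombospondin 1 (Thbs1), thrombospondin 2 (Thbs2), tenascin C (Tnc), periostin (Postn), osteonectin (Sparc), fibrillin 1 (Fbn1), fibulin 2 (Fbln2), elastin (Eln) and versican (Vcan). The members were taken as every gene probe whose accession maps to one of these mouse symbols, which gave 14 probes of 55681 and 10 gene names of 36838. Of the 10 genes, 7 had 1 probe, Tnc and Sparc had 2 and Vcan had 3, and each probe was printed as 1 spot. The genes were chosen on the normalized levels of these same 4 arrays, so their values are a description and none was tested.

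RNA came from confluent NIH-3T3 cultures, a widely used line of mouse embryo fibroblasts. One-colour Agilent arrays held RNA of untreated cells, or of cells collected 24 h after 20 µM AR7, CA39 or CA77 was added, with 1 array per group. CA39 and CA77 were made as derivatives of AR7, to activate chaperone-mediated autophagy (CMA), in which single cytosolic proteins are carried into lysosomes. The 3 compounds were given in DMSO and the control is labelled as having had no treatment, so vehicle and compound cannot be told apart in a change that the treated arrays share. No group had a second array, so no difference has a replicate check and no p-value is given.

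All of these proteins are secreted by fibroblasts into the extracellular matrix. Fibronectin forms fibrils that cells pull on through integrins, fibrillin and elastin build microfibrils and elastic fibres, and versican is a large proteoglycan that binds hyaluronan. Thrombospondins, tenascin C, periostin and Sparc are matricellular proteins, which are found in the matrix but mainly alter how cells adhere, respond to growth factors or assemble collagen, and which are known for being made during wound repair.

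Promoter sequence from RefSeq (assembly GRCm38.p6) was at hand for 7 of the 10 genes, in 9 windows that run from 250 bases before to 50 after a start site. Fn1, Thbs1 and Eln had no entry. The windows of Postn, Thbs2, Fbn1 and Fbln2 are shown, which are those of the genes that were higher with CA39 by 2-fold or more, as described below. Capitals mark the TATA-type letters TATAAA, the AP-1 motif TGACTCA, the TEAD motif GGAATG, the SMAD-type motif CAGACA, the nuclear receptor motif AGGTCA or the letters CCAAT, on either strand. Each line reads 5′ to 3′ on the strand of the gene. Postn has windows at chr3:54359017-54359316 and chr3:54360857-54361156, both on the plus strand, and Thbs2 at chr17:14694213-14694512 on the minus strand. Fbn1 has its window at chr2:125506389-125506688 on the minus strand, and Fbln2 at chr6:91212514-91212813 on the plus strand.
Postn upstream start: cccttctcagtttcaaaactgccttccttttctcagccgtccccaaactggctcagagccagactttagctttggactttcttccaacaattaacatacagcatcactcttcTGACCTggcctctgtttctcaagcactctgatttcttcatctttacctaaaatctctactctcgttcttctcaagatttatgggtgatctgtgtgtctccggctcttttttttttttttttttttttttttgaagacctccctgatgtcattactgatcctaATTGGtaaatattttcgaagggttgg
Postn downstream start: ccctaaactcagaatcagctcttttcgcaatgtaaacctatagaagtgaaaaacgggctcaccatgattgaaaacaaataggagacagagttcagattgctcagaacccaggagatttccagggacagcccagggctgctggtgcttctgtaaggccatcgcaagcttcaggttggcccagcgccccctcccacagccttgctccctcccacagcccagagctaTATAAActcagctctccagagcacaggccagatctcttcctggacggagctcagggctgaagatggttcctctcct
Thbs2: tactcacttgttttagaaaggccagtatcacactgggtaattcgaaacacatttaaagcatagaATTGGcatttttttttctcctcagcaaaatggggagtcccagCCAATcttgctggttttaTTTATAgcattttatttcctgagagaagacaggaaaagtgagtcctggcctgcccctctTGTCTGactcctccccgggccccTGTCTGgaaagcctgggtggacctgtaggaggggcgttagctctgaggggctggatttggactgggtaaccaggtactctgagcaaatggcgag
Fbn1: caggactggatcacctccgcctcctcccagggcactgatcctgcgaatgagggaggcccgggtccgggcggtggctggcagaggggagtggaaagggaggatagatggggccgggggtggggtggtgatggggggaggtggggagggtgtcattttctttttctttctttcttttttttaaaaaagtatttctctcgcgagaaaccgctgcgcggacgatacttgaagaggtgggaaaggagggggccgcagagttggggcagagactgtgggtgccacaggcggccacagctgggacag
Fbln2: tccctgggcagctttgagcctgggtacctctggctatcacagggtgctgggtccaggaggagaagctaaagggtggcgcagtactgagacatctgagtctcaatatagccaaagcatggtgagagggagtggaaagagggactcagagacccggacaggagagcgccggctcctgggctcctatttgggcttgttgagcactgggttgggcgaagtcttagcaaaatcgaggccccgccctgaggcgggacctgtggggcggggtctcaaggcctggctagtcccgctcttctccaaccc
The upstream Postn window holds AGGTCA on the minus strand, which begins 138 bases before the start site, and CCAAT on the minus strand. The downstream Postn window holds TATAAA on the plus strand, 26 bases before the start site. The Thbs2 window holds CCAAT and CAGACA at 2 places each, and TATAAA on the minus strand.

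Over all 9 windows, CAGACA occurred in 4, those of Thbs2, Sparc and both starts of Tnc, while 21.0% of 32851 mouse promoter windows of the same length hold it. TATAAA occurred in 4 windows of 3 genes (13.6% of all), CCAAT in 3 (37.4%) and AGGTCA in 1 (16.3%). TGACTCA and GGAATG occurred in 0 of the 9, against 5.20% and 14.7% of all windows. No pair of these motifs overlapped in the printed windows, and the windows of Fbn1 and Fbln2 held none of the 6. The 2 Tnc windows overlap each other and so share letters.

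The scanner's own test placed 10 of the 14 probes well above background on all 4 arrays. Another 3 were well above background on 1 array, and 1 probe of Tnc on none. Over the arrays, the shares of all probes well above background were 52.2% to 69.7%, highest on the untreated array, and no spot was saturated. All arrays lay on 1 slide. The untreated array was in slide row 1 and the treated arrays in slide row 2, and position on the slide and treatment can therefore not be separated. CA77 was read in scan 2 while the others were read in scan 1. Spots around those of the members differed from untreated by a median of -0.21 to 0.10 on the log2 scale. In such bulk RNA, fewer cells that make a transcript and less of it per cell cannot be told apart.

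With CA39, fibronectin, both thrombospondins, fibrillin 1, fibulin 2 and periostin were higher than in untreated cells by 2-fold or more. Sparc and versican stayed within 1.21-fold by their brightest probes, and elastin was lower. With AR7 and CA77 the 8 genes that could be compared lay at the untreated level or below it, by at most 1.70-fold. Values below are normalized intensities on the log2 scale, where 1 unit is 2-fold. A level of one probe cannot be set against that of another. The error of a difference between 2 arrays was 0.16, from the median SD over 399 probes printed 10 times per array, and covers spots of an array but not cultures.

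**Figure D1:**
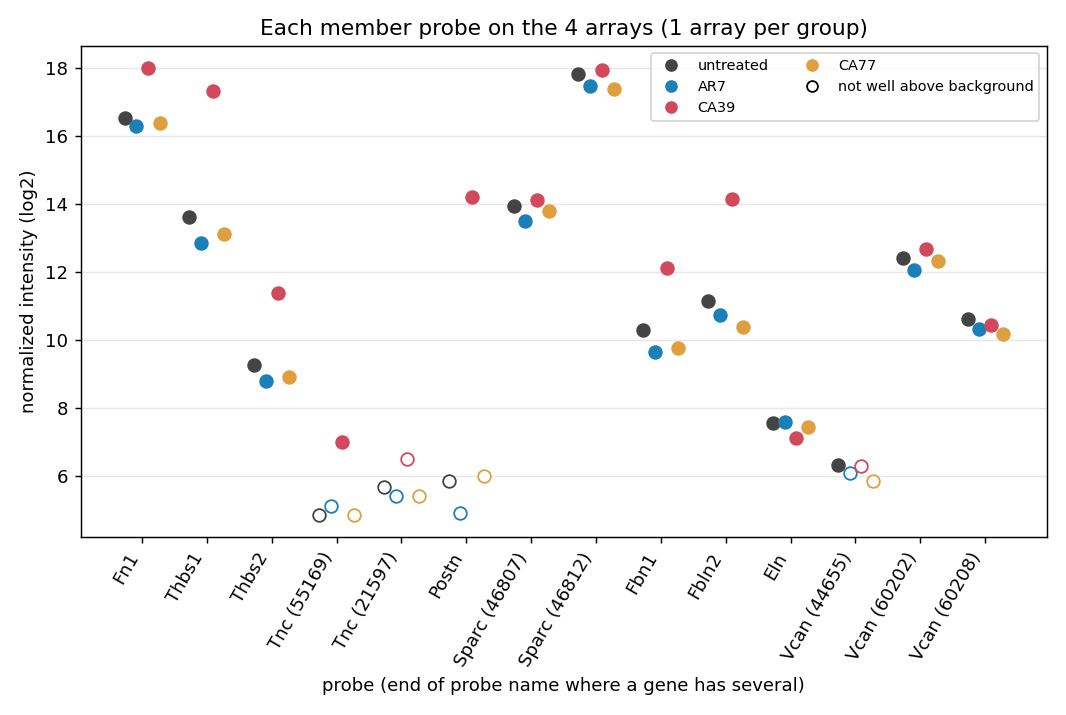
Normalized intensity (log2) of the 14 probes of the 10 genes on the 4 arrays, 1 point per array, with open points where the probe was not well above background and with the end of the probe name where a gene has several. The CA39 points of Fn1, Thbs1, Thbs2, Postn, Fbn1 and Fbln2 stand above the other 3 arrays by 2-fold or more, and those of Sparc, Eln and Vcan do not.

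Thbs1 encodes a secreted glycoprotein that binds CD47 and CD36 and can release latent TGF-beta. Its probe (NM_011580) read 13.62 untreated, 12.85 with AR7, 17.32 with CA39 and 13.11 with CA77. CA39 was the high array and the other 3 lay within 0.77 of each other. The difference from untreated was 3.70 with CA39, or 13.0-fold, -0.77 with AR7 and -0.51 with CA77. Before normalization, its background-subtracted signal was 12767 untreated, 7844 with AR7, 166652 with CA39 and 8134 with CA77, which gives the same order. Of 21393 genes measured on both the CA39 and untreated arrays, 20 had a larger positive difference than Thbs1.

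Thbs2, a thrombospondin that does not activate TGF-beta and binds matrix metalloproteinases, had the same pattern. Its probe (NM_011581) read 9.25 untreated, 8.79 with AR7, 11.38 with CA39 and 8.90 with CA77. It was higher with CA39 by 2.13, or 4.39-fold, and differed from untreated by -0.46 with AR7 and -0.34 with CA77. For both thrombospondins the order was CA39, untreated, CA77 and AR7, from highest to lowest, and AR7 and CA77 were 0.26 apart for Thbs1 and 0.11 apart, under the spot error, for Thbs2.

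Fn1 encodes fibronectin, the main fibrillar adhesion protein that fibroblasts assemble. It read 16.52 untreated, 16.30 with AR7, 17.98 with CA39 and 16.38 with CA77 (NM_010233). CA39 was higher than untreated by 1.47, or 2.77-fold. The differences of -0.22 with AR7 and -0.14 with CA77 were small, the latter within the spot error, and the spots around it were themselves lower on the treated arrays by 0.10 to 0.14.

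Fbn1 and Fbln2 belong to the microfibrils, where fibrillin 1 is the backbone and fibulin 2 binds fibrillin, fibronectin and versican. Fbn1 (NM_007993) read 10.27 untreated, 9.63 with AR7, 12.12 with CA39 and 9.75 with CA77. CA39 exceeded untreated by 1.85, or 3.60-fold, and AR7 and CA77 lay below it, with differences of -0.64 and -0.52. Fbln2 (NM_007992) read 11.14 untreated, 10.73 with AR7, 14.14 with CA39 and 10.38 with CA77. It was higher with CA39 by 3.00, or 8.02-fold, with 54 genes above it, and its differences were -0.40 with AR7 and -0.75 with CA77.

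Eln, which encodes tropoelastin, the soluble unit of elastic fibres, went against these. It read 7.56 untreated, 7.58 with AR7, 7.12 with CA39 and 7.42 with CA77 (NM_007925). The CA39 array was lowest, at -0.44 from untreated, while AR7 at 0.02 and CA77 at -0.14 were within the spot error. Under the alternatives tried, the difference with CA39 ran from -0.86 to -0.34. That with CA77 was beyond the spot error with 75th percentile scaling, at -0.39, with quantile normalization of the processed signal, at -0.32, and in the deposited table, which is not scaled between arrays, at -0.50. Of the 8 genes well above background on all arrays, Eln was the 1 with its lowest value on CA39, and the other 7 had their highest value there.

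Postn encodes periostin, a fasciclin-domain protein that binds integrins, fibronectin and tenascin C and supports collagen crosslinking. Its probe (NM_001198766) read 5.84 untreated, 4.91 with AR7, 14.18 with CA39 and 6.0 with CA77. It was well above background on CA39 alone. The background-subtracted signal was 19177 with CA39 and 78.5, 47.0 and 75.5 on the untreated, AR7 and CA77 arrays, which give only an upper limit. Taken against the higher of the dim value and the 1st percentile of detected signal on that array, Postn was higher with CA39 than untreated by a bound of 8.31 on the log2 scale, or 317-fold. On the untreated array that percentile, at 5.88, was the higher and set the bound. The value ran from 7.42, with a normexp offset of 50, to 9.75, with quantile normalization of the processed signal. The background-subtracted signals stand in a smaller ratio than 317, so the bound holds only for this processing. The bound was 7.37 against AR7 and 7.93 against CA77. The order of the 3 dim arrays cannot be read.

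Tnc encodes tenascin C, a hexameric matricellular protein that weakens adhesion to fibronectin. Its 2 probes were both dim and both carry NM_011607. The probe that is dimmer on average read 4.86 untreated, 5.11 with AR7, 6.99 with CA39 and 4.86 with CA77. It was well above background on CA39 alone, at least 2.16-fold higher there than untreated, at least 1.13-fold higher than AR7 and at least 1.66-fold higher than CA77. The other probe had the higher mean, at 5.66, 5.40, 6.49 and 5.40 in the same order, but stayed under the scanner's detection limit on the 4 arrays. By the rule that takes the brightest probe, Tnc was therefore not compared, and by the dimmer probe it would add 1 gene to those higher with CA39.

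Sparc encodes a collagen-binding matricellular protein that is abundant in fibroblasts. Its bright probe (NM_009242) read 17.82 untreated, 17.45 with AR7, 17.93 with CA39 and 17.38 with CA77. CA39 differed from untreated by 0.11, within the spot error, and AR7 and CA77 by -0.36 and -0.43. The spots around it were lower than untreated by 0.14, 0.21 and 0.19 on the AR7, CA39 and CA77 arrays. Less the median of these neighbours, Sparc differed by 0.32 with CA39, -0.23 with AR7 and -0.25 with CA77, so that its value with CA39 came to lie beyond the spot error. The second Sparc probe, in another region, read 13.95, 13.50, 14.10 and 13.78 in the order untreated, AR7, CA39 and CA77. Its differences from untreated were -0.45, 0.15 and -0.16 in the order of the compounds.

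Versican had 3 probes that name 2 transcripts. The brightest (NM_001081249) read 12.39 untreated, 12.05 with AR7, 12.67 with CA39 and 12.31 with CA77, with differences of -0.34, 0.27 and -0.09. A probe of NM_172955 read 10.60, 10.32, 10.44 and 10.18 in that order, with differences of -0.28, -0.16 and -0.42. The 2 probes both lay lower with AR7 and took opposite signs with CA39, where the value of the second was within the spot error. A second probe of NM_172955 read 6.32, 6.08, 6.27 and 5.84 and was well above background on the untreated array alone, and so gives no fold with AR7 or CA39. Whether the 2 transcripts or the probes themselves differ was not tested.

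**Figure D2:**
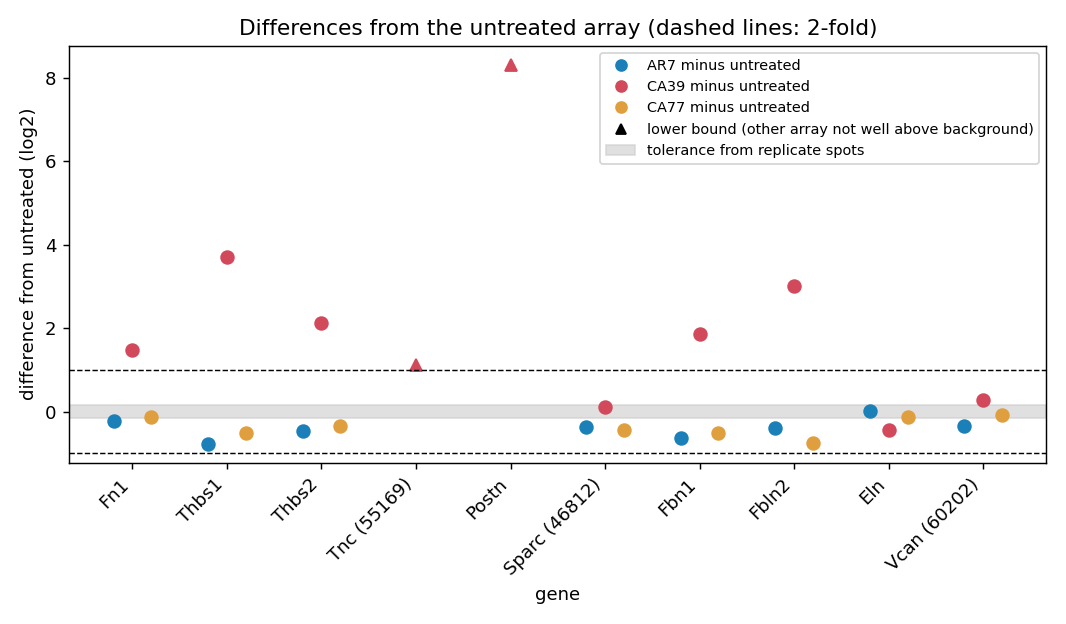
Difference from the untreated array (log2) of each gene by its brightest probe, and of Tnc by the probe that was well above background on CA39, with circles for values measured on both arrays, triangles for lower bounds, a grey band for the error of 0.16 and dashed lines at 2-fold. The CA39 points of Fn1, Thbs1, Thbs2, Postn, Fbn1, Fbln2 and Tnc lie above the upper dashed line, and all AR7 and CA77 points lie between the dashed lines.

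Counted over the genes, 6 of the 9 that could be compared with CA39 were higher than untreated by 2-fold or more and 0 were lower. Among 27894 gene names, 3.69% were higher by as much, 1.16% lower and 4.85% either. With AR7, 0 of the 8 compared passed 2-fold, where 2.19% of all genes did, and with CA77 0 of 8, where 2.47% did. The genes were chosen from these values, so nothing is drawn from the counts beside these shares. By the finer limit of the spot error, 7 of 8 members were lower with AR7, where 17.5% of all genes were lower, and 5 of 8 with CA77, where 25.5% were. The median of the members was 1.85 over 9 genes with CA39, and -0.38 with AR7 and -0.39 with CA77 over 8, while the medians over all genes compared were 0.00, 0.00 and -0.01. Postn was compared with CA39 alone because it is high there. Over the 8 genes well above background on all arrays, 5 were higher with CA39 by 2-fold and the median was 1.66. Under that filter, 455 of 20594 gene names were higher by as much. These 3 comparisons share 1 untreated array, so a deviation of that array from untreated cells in general enters all of them.

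**Figure D3:**
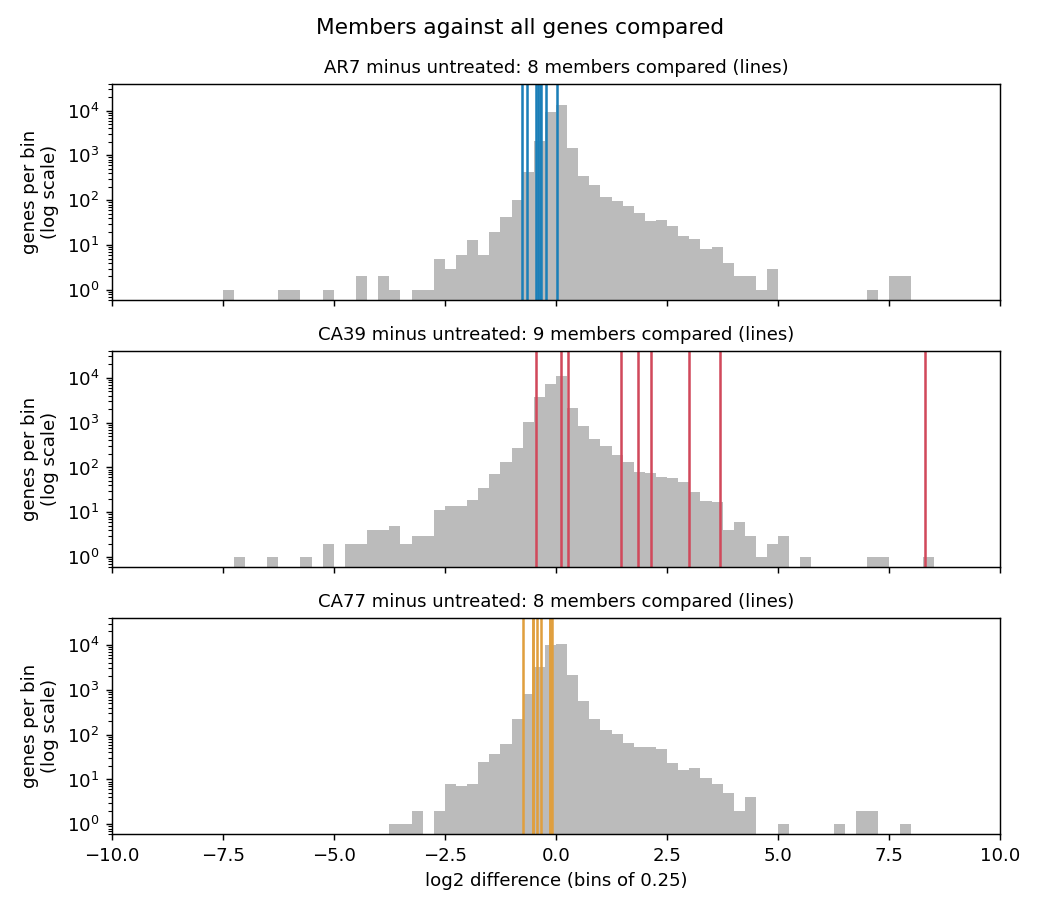
Distribution of the log2 difference from untreated over all gene names compared, in bins of 0.25 with the number of genes on a log scale, with a vertical line for each of the 10 genes that could be compared. Lines for AR7 and CA77 lie between -0.77 and 0.02, and lines for CA39 run from -0.44 to 8.31.

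The 3 compounds were given at matched dose and time, so the arrays can be set beside each other without the untreated array, for 3 pairs. In CA39 against AR7, 6 of 9 genes were higher with CA39 by 2-fold or more, where 3.72% of all genes were. The differences were 4.46 for Thbs1, 3.41 for Fbln2, 2.59 for Thbs2, 2.49 for Fbn1 and 1.68 for Fn1, with at least 7.37 for Postn. In CA39 against CA77 the count was again 6 of 9, where 3.98% of all genes were, with 4.20 for Thbs1, 3.75 for Fbln2, 2.48 for Thbs2, 2.37 for Fbn1 and 1.61 for Fn1. Sparc differed by 0.47 and 0.54 and Vcan by 0.61 and 0.36 in these pairs, and Eln by -0.46 and -0.31. Postn entered both pairs only because it was detected with CA39. Over the 8 genes well above background on all arrays, 5 were higher with CA39 by 2-fold in each pair. No share over all genes was computed for that filter in these pairs. The genes were chosen on these same values, so nothing is drawn from the counts.

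Between CA77 and AR7, 0 of 8 genes differed by 2-fold, where 2.57% of all genes did. Of the 8, 3 differed by more than the spot error, where 35% of all genes did. Thbs1 and Vcan were each higher with CA77 by 0.26, and Fbln2 lower by 0.35. With 1 array each, no interval can be given for the difference between the compounds, and values this close do not show that they act alike.

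The profiles of Thbs2 and Fbn1 were the closest pair among the 8 members well above background on all arrays, at a distance of 0.21 on the log2 scale over 4 arrays after each gene was centred, and those of Sparc and Vcan were next at 0.28. The farthest were Thbs1 and Eln, at 3.96. Among 13018 gene symbols well above background on all arrays, Sparcl1 was nearest to Thbs2 at 0.10, then Ptpn20 at 0.20 and Fbn1. Nearest to Thbs1 were Adamts2 at 0.31, Emb at 0.37 and Klhl30 at 0.50, and nearest to Fbln2 were Tubb2b, Bst2 and Pmepa1, at 0.27, 0.27 and 0.28. With 4 points per gene, many genes can lie this close.

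Other genes of the same families and of the matrix pathway were read from lists. The first held 42 relatives, such as other fibulins, tenascins, matricellular Ccn genes and Sparc-like genes. Of the 36 compared with CA39, 7 were higher by 2-fold and 3 lower, where 3.69% and 1.16% of all genes were. The list's median was 0.00. With AR7 1 was higher and 2 lower of 35, and with CA77 1 was higher and 0 lower of 35. The shares of all genes past 2-fold in either direction were 2.19% with AR7 and 2.47% with CA77. Sparcl1, a relative of Sparc, read 7.81 untreated, 7.26 with AR7, 9.99 with CA39 and 7.46 with CA77, a difference of 2.18 with CA39. Fbln5, which links elastic fibres to integrins, read 11.18, 9.99, 13.35 and 10.41 in that order, with 2.17 for CA39 and -1.19 for AR7. Its untreated value lay between those of AR7 and CA39.

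Ccn2, the connective tissue growth factor gene, read 14.73, 13.54, 16.38 and 14.02 in the same order, with differences of -1.18 with AR7, 1.65 with CA39 and -0.71 with CA77. Spp1, which encodes the integrin ligand osteopontin, was higher with CA39 by 1.35. Smoc2, a calcium-binding matricellular relative of Sparc, was lower by 1.89 on the log2 scale, at 11.04 untreated and 9.15 with CA39, and so went the other way. Ccn1 and Fbln1 were also lower with CA39, at -1.14 and -1.10, and Nid1, Smoc1 and Nid2 were higher by 1.32, 1.25 and at least 1.23. Ccn3 was the 1 relative higher by 2-fold with AR7 and with CA77, at 1.02 and 1.03. It was dim, at 5.94 untreated, 6.97 with AR7 and 6.97 with CA77. The 1st percentile of detected signal on these arrays was 5.88, 6.82 and 6.26, so these differences are uncertain. Fbln1 was dim too, at 6.97 with CA39, where that percentile was 6.87, and its other probe gave no fold.

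Among 17 receptor genes for these ligands, 3 of 14 compared were higher with CA39 and 0 lower, where 3.69% and 1.16% of all genes were. For AR7 and CA77 there were 0 in either direction, where 2.19% and 2.47% of all genes passed 2-fold. Itgb5, a subunit of the vitronectin-binding integrin, was higher by 1.71, from 13.98 untreated to 15.69. Itga8, a subunit of an RGD-binding integrin that binds tenascin C and fibronectin, read 6.98 untreated and 8.60 with CA39, a difference of 1.63, and was not well above background with AR7 or CA77. Lrp1, an endocytic receptor that clears thrombospondins, was higher by 1.11. Integrin subunits Itgb1 and Itgav differed with CA39 by 0.34 and 0.11, while their other probes gave -0.17 and -0.03. Itga5, which pairs with Itgb1 as the fibronectin receptor, differed by -0.01.

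In the list of enzymes that cut or crosslink these proteins, 4 of 12 were higher with CA39 and 1 lower, with a median of 0.53. Of all genes, 3.69% were higher by 2-fold and 1.16% lower. Adamts2, which trims the amino-terminal propeptide of fibrillar procollagens, read 9.91 untreated, 9.49 with AR7, 13.58 with CA39 and 9.61 with CA77, a difference of 3.67. Its other probe gave 1.53, in the same direction but smaller. Adamts5 and Adamts1, proteases that cut versican, were higher by 2.56 and 2.38, and the other probe of Adamts5 gave 1.51. Lox, which crosslinks collagen and elastin, was higher by 1.29. Mmp9, gelatinase B, was lower with CA39, where it was not well above background, by at least 1.28 on the log2 scale, and was higher with AR7 by 1.35, at 8.15 untreated and 9.50 with AR7.

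For the TGF-beta pathway, which is known to raise several of these matrix genes, 2 of 14 were higher with CA39 and 0 lower, with a median of 0.25. Of all genes, 3.69% were higher by 2-fold and 1.16% lower. Pmepa1, a target and inhibitor of the pathway, was higher by 3.07, from 8.16 untreated to 11.24, and by 2.92 on its other probe. Smad6, Smad7 and Skil of the same list differed by -0.28, -0.23 and 0.39, and the other probe of Skil by 0.21. By the spot error, 7 of the 14 were higher with CA39 and 4 lower, where 5832 and 7586 of 27894 gene names were. The signal carriers Smad2 and Smad3 differed by 0.14 and -0.44, and the ligands Tgfb1, Tgfb2 and Tgfb3 by -0.13, 0.96 and 0.64. The receptors Tgfbr1, Tgfbr2 and Tgfbr3 differed by 0.43, 0.36 and -0.64. The other probe of Tgfbr2 differed by 0.06, and those of Tgfb2 and Tgfbr1 gave no fold. With AR7 and CA77, 0 of 14 passed 2-fold, where 2.19% and 2.47% of all genes did.

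**Figure D4:**
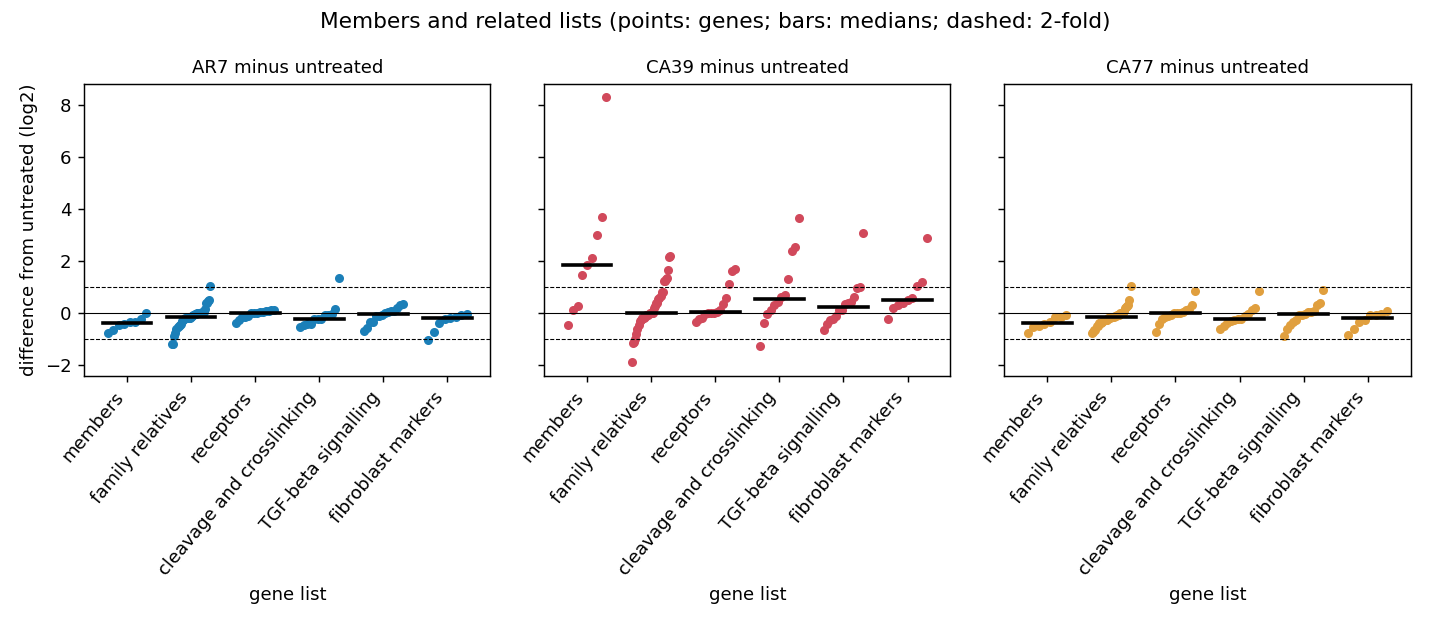
Difference from untreated (log2) of each gene compared, for the members, the 4 related lists and fibroblast markers, with 1 panel per compound, bars at the medians and dashed lines at 2-fold. With CA39 the median of the 9 members compared is 1.85, and the medians of the other lists run from 0.00 to 0.53. The members were chosen on these same values and Postn was compared because it is high there, so nothing is drawn from this order. Over the 8 members well above background on all arrays the median is 1.66.

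Some markers of cell types moved with CA39 too. All 9 fibroblast markers were well above background there and 8 on each other array, and their summed background-subtracted signal was 769426 to 949584 on the other arrays and 1069940 with CA39. The collagen gene Col1a1 read 15.60 untreated, 14.55 with AR7, 16.65 with CA39 and 14.77 with CA77. Its differences of -1.04, 1.06 and -0.83 had the same order as those of Thbs1 and Fn1. Pdgfra, a receptor for platelet-derived growth factor, was higher with CA39 by 1.19, and Pdgfrb, dim on the other arrays, by at least 2.90. Col1a1, Pdgfra and Pdgfrb were the 3 of 9 markers higher by 2-fold, with 0 lower, where 3.69% and 1.16% of all genes were. Vim, Col1a2, P4hb, Col3a1 and Thy1 differed by 0.20 to 0.58, and S100a4 by -0.22. Of 5 epithelial markers 3 were well above background with CA39, as with CA77 and untreated, and 2 with AR7. Their summed signal was 1778 there and 467 to 655 on the other arrays. Krt8 was higher by 2.38, and Epcam by at least 1.65, while the defining gene Cdh1 was not well above background on the 4 arrays. Krt18 differed by 0.98, and Cldn4 was well above background on the untreated and CA77 arrays but not with CA39. Of 4 chondrocyte markers 3 were well above background with CA39. Untreated had 4 and AR7 and CA77 had 3 each. Their sum was 12097 with CA39 and 4734 to 6373 elsewhere, but of the 4 only Sox9 was higher with CA39, by 0.99, while Acan differed by -0.26, Col9a1 by -0.51 and Col2a1 was not well above background there. Their part in the matrix differences was not tested.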

How the data were processed

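Total RNA of 4 NIH-3T3 cultures was labelled with Cy3 and hybridized to Agilent arrays of 62976 spots by the authors, and spots were read with Feature Extraction 10.7.3.1. The deposited values used here are linear spot intensities with a local background. The methods name the oligo package and RMA, whose values were not used. Following RMA, median intensity was background-corrected with normexp (limma 3.58.1, R 4.3.3, offset 0), control and flagged spots were left out, arrays were quantile normalized and log2 taken. No member spot was flagged (0 spots). Detected means that over 50% of spots were well above background. A gene was its brightest probe by mean. Where 1 array of a pair was not detected, it was set to the higher of its value and the 1st percentile of detected signal. The difference is then a bound, set to 0 if its sign turned, and genes detected on neither array were not compared. A change was called at 2-fold. Accessions were matched to RefSeq (GRCm38.p6), which named 27512 of 55378 probes with values, and the array files cite another build, so the only coordinates given are those of the RefSeq promoter windows. Precision is limited by 1 array per group. The members, lists and motifs were chosen with earlier results of these data known. From the related lists, the 12 genes past 2-fold against untreated with the largest differences were named, beside others chosen after their values were seen.

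Marker lists for endothelial cells, leukocytes, smooth muscle, osteoblasts and adipocytes were also read. With CA39 0 genes passed 2-fold in the first 4 lists, and 1 of 3 adipocyte genes, Fabp4, was lower by 1.59 on the log2 scale. Of all genes, 4.85% passed 2-fold with CA39 in either direction. One gene of the TGF-beta list is not reported here by name.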

Additional observations from a re-analysis of the deposited data

How the results depend on the processing

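The count of members past 2-fold was recomputed under 12 alternatives for 6 comparisons. It stayed within 1.5 times its main value in 69 of 72 cases. At a threshold of 1.5-fold, 2 members were called lower with AR7 and 1 with CA77. With no floor and no filter, 1 was called between CA77 and AR7, which is Postn, dim on both arrays. Taking the probe with the highest single value, an alternative chosen after seeing the data, gave 7 members with CA39, by adding Tnc. The CA39 count was lowest, at 4 of 6 compared, among probes printed in grid rows over 160 of the array. That region leaves out Postn and Fbn1, and also Eln, which was lower with CA39. Differences of single members from untreated moved by less than the spot error in 274 of 292 cases and none reversed among those past 2-fold. Many of these cases could not move. Where an alternative changes only the threshold, floor, filter or array region, a difference measured on both arrays keeps its value. Single differences between compounds were not recomputed. Postn ranged from 7.42 to 9.75 with CA39, Thbs1 from 3.56 to 3.70, Fbln2 from 2.93 to 3.08 and Fn1 from 1.33 to 1.61. Vcan with CA77 ranged from -0.33 to 0.02 and Eln with AR7 from -0.11 to 0.05, so neither has a settled sign. Eln with CA77 kept its sign, from -0.50 to -0.08, but passed the spot error in 3 alternatives, and Eln with CA39 ran from -0.86 to -0.34, moving by more than that error in 3.

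The count over all genes moved by over 1.5 times in 15 of 36 cases. From 609 with AR7 it came to 1192 with no floor or filter, 167 for genes detected on all arrays, 1313 at 1.5-fold and 167 in grid rows over 160. From 1354 with CA39 it came to 2041, 693, 3028 and 626. From 696 with CA77 it came to 1297, 174, 1820 and 211, and to 1236 with 75th percentile scaling, 1381 with quantile normalization of the processed signal and 1383 with the deposited series table. In that table, which is not scaled between arrays, the median over the genes measured on both arrays was -0.20 with CA77, and calls with CA77 were 723 higher and 660 lower against 542 and 154. In grid rows over 160 they were 89 higher and 122 lower, so the balance turned. With 75th percentile scaling they were 805 and 431, and the median over the genes measured on both arrays was -0.11 with CA39.

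A version with the mean spot intensity was not run, since the files give the median, and no replicate was left out, since each group has 1 array. No paired analysis was possible because each group has 1 array. Dim probes of Postn and Tnc limit their differences to bounds.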
